A study of Homo sapiens with 4 samples.

Results

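The genes described here are 43 genes of glycolysis and of the response to low oxygen, listed by name: the hypoxia-inducible factor (HIF) subunits and the prolyl hydroxylases that act on them, glucose and lactate transporters, glycolytic enzymes, lactate dehydrogenases and flux switches, and other HIF targets. A gene was measured if the annotation of the array platform gave at least 1 probeset its symbol alone, and the brightest probeset over all arrays was to be taken. Of the 43 genes, 40 had such a probeset, 1 each, out of 22465 named genes, and all 40 lay at or above the signal cutoff that kept 14418 genes. CA9, SLC16A1 and SLC16A3 had no probeset of their own and are not analysed here. The cells are SUM159 and MDA-MB-231, established triple-negative breast cancer lines, and each carries a Ptripz plasmid brought in by lentivirus, whose miR-100 insert is switched on by doxycycline or tetracycline (the labels name both). Transduced cells were selected with puromycin at 5 µg/ml, and the labels do not say whether a line was a pool or a clone. The groups are SUM159 with miR-100 induced by 1 week of drug, SUM159 control without it, MDA-MB-231 induced for 1 week and MDA-MB-231 control, with 1 array each and no replicates. All 4 groups carry the plasmid, and no group had the drug without it, so the drug and miR-100 cannot be told apart. SUM159 was kept in Ham's F12 medium with serum, hydrocortisone and insulin and MDA-MB-231 in DMEM with serum, so line and medium cannot be told apart. The sample labels name SUM159 where the design text names SUM149, and they are followed here.

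Glycolysis breaks glucose down to pyruvate in the cytosol, and lactate dehydrogenase turns pyruvate to lactate, which many tumour cells do even with oxygen present. The factors HIF1A and EPAS1 (HIF-2 alpha) pair with ARNT and bind a short DNA motif near genes for glucose uptake, glycolysis, acid handling, blood vessel growth and mitophagy. In oxygen, prolyl hydroxylases such as EGLN1 mark the alpha subunits for destruction, so HIF activity is largely set at the protein level, which an RNA array does not measure.

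The induced microRNA is shown with its seed, bases 2 to 8 counted from the 5′ end, in capitals, since pairing of the seed is how a microRNA mainly finds its targets. The sequence is RefSeq's (GRCh38.p14, chr11:122152275-122152296, minus strand).
miR-100-5p: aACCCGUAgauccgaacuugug

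RefSeq promoter windows, from 250 bases before to 50 after a gene start, were found for 35 of the 40 measured genes, all but BNIP3L, NDRG1, SLC2A3, STC1 and VEGFA. The core of the HIF motif was searched as ACGTG and GCGTG on each strand, and overlapping matches were merged to 1. At least 1 match stood in 67.2% of the members' 61 windows, against 48.4% of all 35116 windows in the table, and 31 of the 35 genes (88.6%) had a match in some window, against 52.4% of all 27305 genes in the table. By role, a match stood in 58.8% of windows for enzymes, 50% for HIF subunits and prolyl hydroxylases and 83.3% for other HIF targets. The share was 87.5% for lactate dehydrogenases and flux switches, and the 1 transporter window held a match. The members had more windows per gene than the table as a whole, so the shares by gene are not like for like. Windows were not matched for base composition. A match is a run of letters, not evidence of binding. The windows below belong to genes that stood at or past 1.5-fold after induction in SUM159, and where a gene had several windows, the one with most matches is shown, with the matches in capitals (CACGT and CACGC are matches on the other strand). The CA12 window holds 2 merged matches, EPAS1 1, HK2 4, PFKP 3 and PKM 1. HK2 had 2 windows in the table, and the one not shown held 3 matches. PFKP had 4 windows, and those not shown held 0, 0 and 1.
CA12 (GRCh38.p14, chr15:63381797-63382096, minus strand): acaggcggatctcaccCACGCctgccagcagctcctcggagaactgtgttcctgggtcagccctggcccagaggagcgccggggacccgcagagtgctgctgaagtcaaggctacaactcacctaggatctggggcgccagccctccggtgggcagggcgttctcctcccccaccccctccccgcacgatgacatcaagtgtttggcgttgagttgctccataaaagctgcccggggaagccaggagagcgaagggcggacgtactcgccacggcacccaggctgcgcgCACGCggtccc
EPAS1 (GRCh38.p14, chr2:46297157-46297456, plus strand): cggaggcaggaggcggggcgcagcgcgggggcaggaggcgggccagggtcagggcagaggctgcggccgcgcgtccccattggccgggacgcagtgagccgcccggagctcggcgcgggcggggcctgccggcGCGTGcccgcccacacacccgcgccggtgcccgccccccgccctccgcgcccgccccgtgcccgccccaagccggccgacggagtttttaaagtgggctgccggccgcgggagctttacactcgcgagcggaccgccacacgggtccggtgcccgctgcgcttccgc
HK2 (GRCh38.p14, chr2:74834920-74835219, plus strand): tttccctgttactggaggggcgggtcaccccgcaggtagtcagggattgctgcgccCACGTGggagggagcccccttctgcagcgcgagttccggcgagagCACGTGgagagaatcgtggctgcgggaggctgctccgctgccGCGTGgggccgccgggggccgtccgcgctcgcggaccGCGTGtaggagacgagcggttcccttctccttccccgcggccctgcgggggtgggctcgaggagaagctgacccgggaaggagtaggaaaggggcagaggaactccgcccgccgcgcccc
PFKP (GRCh38.p14, chr10:3104359-3104658, plus strand): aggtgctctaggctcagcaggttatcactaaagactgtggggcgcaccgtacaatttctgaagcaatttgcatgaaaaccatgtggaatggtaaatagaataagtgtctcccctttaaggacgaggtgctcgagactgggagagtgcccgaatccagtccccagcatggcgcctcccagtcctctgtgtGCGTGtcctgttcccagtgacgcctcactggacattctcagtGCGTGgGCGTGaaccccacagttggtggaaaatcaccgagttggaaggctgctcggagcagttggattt
PKM (GRCh38.p14, chr15:72231141-72231440, minus strand): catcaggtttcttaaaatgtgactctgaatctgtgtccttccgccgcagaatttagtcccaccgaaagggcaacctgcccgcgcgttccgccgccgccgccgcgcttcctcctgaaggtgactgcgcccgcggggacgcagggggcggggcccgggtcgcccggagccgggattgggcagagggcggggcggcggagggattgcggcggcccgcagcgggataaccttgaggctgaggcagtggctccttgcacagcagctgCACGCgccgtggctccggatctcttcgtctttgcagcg

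The arrays were close in overall scale, with medians from 4 to 4.07 on the log2 scale. The 6 genes taken as markers of mesenchymal triple-negative lines (VIM, CD44, EGFR, CAV1, AXL and MSN) had signals from 10.65 to 16.63, and ESR1 and PGR, the hormone receptor genes, lay below the cutoff of 4.035 on every array, at 2.98 to 3.68. Of the epithelial and luminal markers, CDH1 lay below the cutoff, EPCAM had 4.55 and 4.86 in induced and control SUM159 cells and 6.16 and 6.11 in induced and control MDA-MB-231 cells, and GATA3 had 6.46 in induced and 7.21 in control SUM159 cells and 6.44 in induced and 6.54 in control MDA-MB-231 cells. GATA3 was thus past 1.5-fold lower in SUM159, at -0.75. KRT19 had 4.96 in induced and 4.92 in control SUM159 cells, against 9.52 in induced and 9.69 in control MDA-MB-231 cells. The blood, endothelial and liver markers PTPRC, PECAM1, VWF, HBB and ALB had signals of 2.93 to 4.24, below the cutoff on average, and CD3E had 4.16 to 4.56. In bulk RNA, fewer cells of a type and less RNA per cell cannot be told apart. The MIR100 probeset stood at 18.18 in induced and 6.56 in control SUM159 cells, and at 17.29 in induced and 8.11 in control MDA-MB-231 cells. That probeset does not tell mature miR-100 from the transcript of the construct.

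After induction, every difference of 1.5-fold or more among these 40 genes was in SUM159. There, 6 of 40 genes were at or past 1.5-fold higher (0.585 on the log2 scale), where 3.95% of all 14418 kept genes were, and 1 was at or past it lower, where 3% were. The 6 were STC1, SLC2A3, CA12, PFKP, PKM and HK2, and the 1 lower was EPAS1. In MDA-MB-231, 0 of 40 were at or past it higher, against 1.69% of kept genes, and 0 lower, against 0.784%. With 1 array per group there is no test within a line. As a guide to array noise, probesets below the cutoff had induced minus control differences whose robust SD, taken from absolute deviations, was 0.193 for SUM159 and 0.178 for MDA-MB-231. The median difference over the 40 genes was 0.09 for SUM159 and -0.035 for MDA-MB-231, and over all kept genes it was 0.00 and 0.01.

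**Figure D1:**
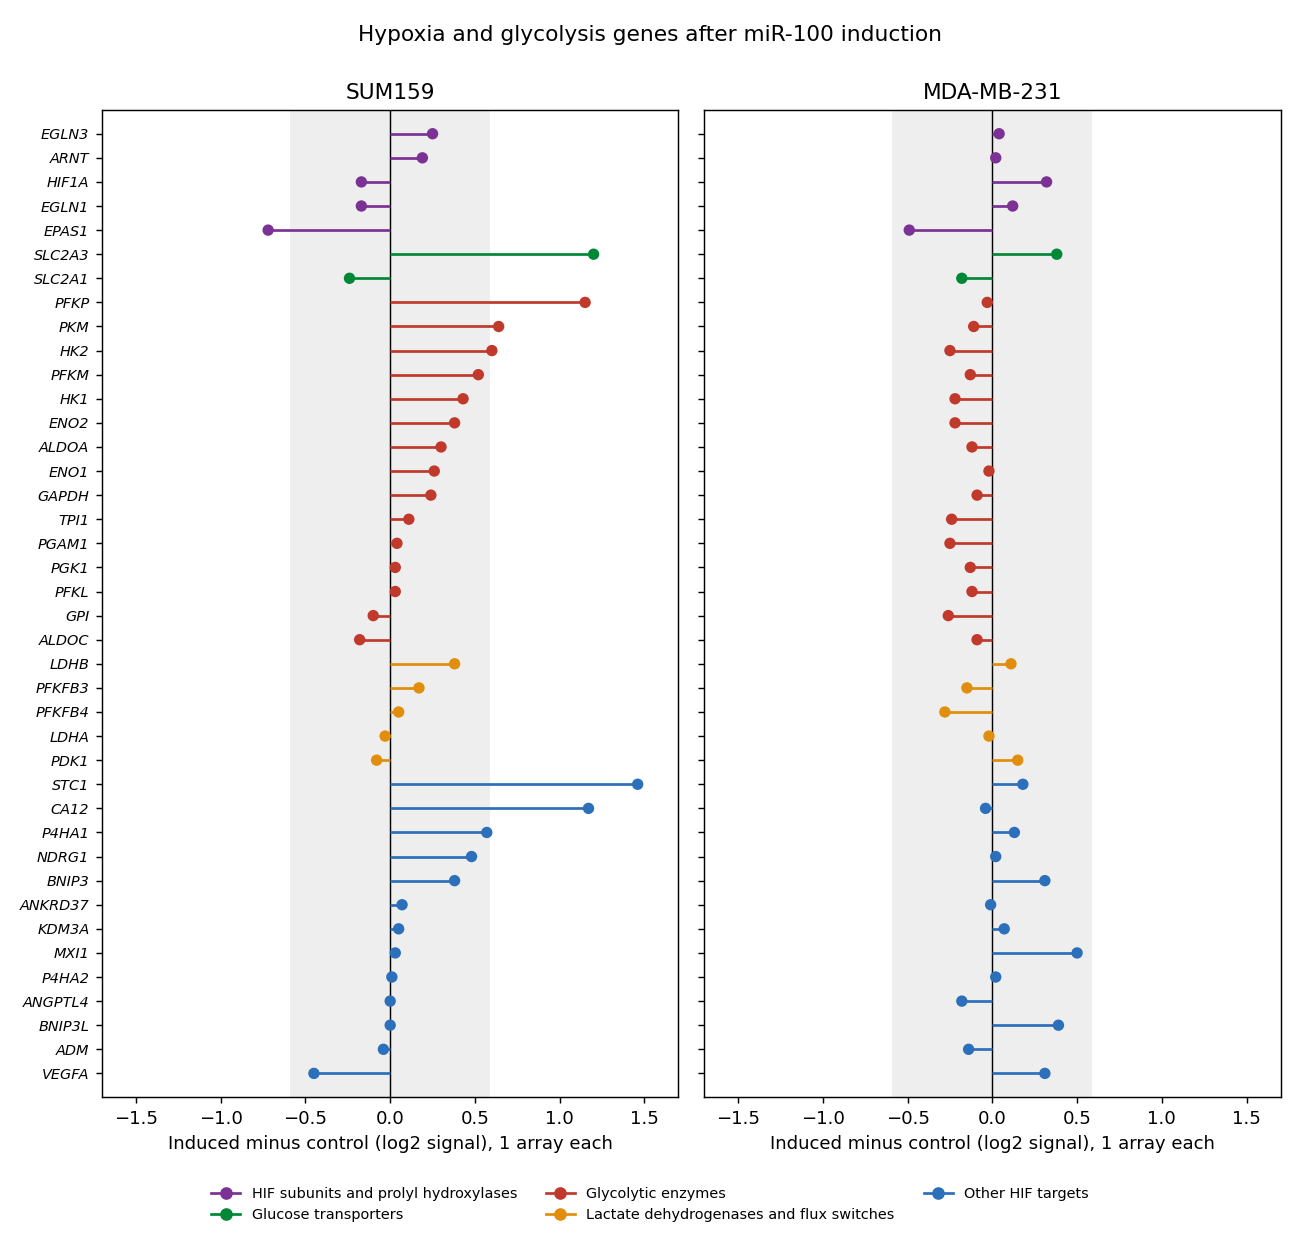
Induced minus control difference in log2 signal for each of the 40 genes, SUM159 at left and MDA-MB-231 at right, from 1 array per group, coloured by role and ordered within a role by the SUM159 difference. The grey band runs to 1.5-fold either way; 7 genes lie outside it for SUM159 and 0 for MDA-MB-231.

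Among the HIF subunits, EPAS1 was lower in each line. EPAS1 (probeset TC02000281.hg.1) had a log2 signal of 10.65 in induced and 11.37 in control SUM159 cells, and of 9.22 in induced and 9.71 in control MDA-MB-231 cells. The difference was -0.72 in SUM159, or 1.65-fold lower, and -0.49 in MDA-MB-231. Each of these lay near the bottom of its line, since 1.59% of kept genes had a lower difference for SUM159 and 1.64% for MDA-MB-231. HIF1A, the other alpha subunit, had 16.30 in induced and 16.47 in control SUM159 cells, and 15.81 in induced and 15.49 in control MDA-MB-231 cells. It thus stood at -0.17 for SUM159 and 0.32 for MDA-MB-231, with the first of these inside the noise spread. ARNT, the shared partner, stood at 0.19 and 0.02, and the prolyl hydroxylase genes EGLN1 at -0.17 and 0.12 and EGLN3 at 0.25 and 0.04, for SUM159 and MDA-MB-231. EGLN3 signals were 4.05 to 4.73, close to the cutoff.

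The glucose transporter genes SLC2A3 and SLC2A1 had opposite signs, each the same in both lines. SLC2A3, which encodes the high-affinity transporter GLUT3 (TC12001170.hg.1), had 12.15 in induced and 10.95 in control SUM159 cells, and 10.14 in induced and 9.76 in control MDA-MB-231 cells. It was 2.30-fold higher in SUM159 and 1.30-fold higher in MDA-MB-231. SLC2A1, which encodes the basal transporter GLUT1, had 11.04 in induced and 11.28 in control SUM159 cells, and 12.82 in induced and 13.00 in control MDA-MB-231 cells. It was lower in each line, at -0.24 and -0.18 log2 units, which is about the size of the noise spread.

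After induction, most glycolytic enzyme genes had a higher signal in SUM159 and a slightly lower one in MDA-MB-231. Of 15 enzyme genes, 13 (11 after quantile normalization) were higher in induced than in control SUM159 cells, with GPI (-0.10) and ALDOC (-0.18) the exceptions, and the median difference was 0.26 (0.14 after quantile normalization), with 3 genes past 1.5-fold. All 15 were lower in induced MDA-MB-231 cells as the values were deposited (14 after quantile normalization and 13 after centring each array), from -0.26 for GPI to -0.02 for ENO1, with a median of -0.13 and 0 past 1.5-fold. Over all kept genes, 48.8% were higher in SUM159 and 47.3% were lower in MDA-MB-231. Of the 15 enzyme differences, 6 in SUM159 lay inside that line's noise spread of 0.193, and 9 in MDA-MB-231 lay inside its spread of 0.178. The 13 genes higher in SUM159 were all lower in MDA-MB-231 as deposited, a pattern that 22.7% of all kept genes showed. The share of genes on each side of 0 varied with signal: 12 of the 15 enzymes had a mean signal of 8 or more, and among kept genes with a mean signal of 10 to 12, 56.3% were higher in SUM159 and 35.9% were lower in MDA-MB-231. At 14 and over, which holds 3 of the enzymes, the shares were 67.2% and 44.1%. Over the 6 signal ranges compared, at most 52.8% of genes were lower in MDA-MB-231. Of the 6 mesenchymal markers, 5 were higher in induced SUM159 cells, with CD44 at 0.89, MSN at 0.85 and AXL at 0.65. EGFR stood at 0.48, VIM at 0.47 and CAV1 at -0.05 there. In MDA-MB-231, unlike the enzymes, 4 of the 6 were higher, with a median of 0.09 over the 6. The 2 lower there were MSN (-0.22) and AXL (-0.19). The part of signal level or of these markers in the enzyme result was not tested.

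Along the pathway, HK2 and PFKP passed 1.5-fold among the entry and commitment steps in SUM159. HK2, the inducible hexokinase that traps glucose as its phosphate (TC02000466.hg.1), had 8.79 in induced and 8.19 in control SUM159 cells, and 9.69 in induced and 9.94 in control MDA-MB-231 cells. It was 1.52-fold higher in SUM159, just past the threshold, and stood at -0.25 in MDA-MB-231. HK1, the constitutive hexokinase, stood at 0.43 and -0.22 for SUM159 and MDA-MB-231. PFKP, the platelet-type subunit of phosphofructokinase, which catalyses the committed step (TC10000022.hg.1), had 11.17 in induced and 10.02 in control SUM159 cells, and 11.58 in induced and 11.61 in control MDA-MB-231 cells. PFKP was 2.22-fold higher in SUM159, and SUM159 minus MDA-MB-231 was -0.41 between induced and -1.59 between control arrays. The muscle-type subunit gene PFKM stood at 0.52 and -0.13, and the liver-type subunit gene PFKL at 0.03 and -0.12.

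In the later steps only PKM passed 1.5-fold, in SUM159. PKM, which encodes the pyruvate kinases M1 and M2 that the probeset does not separate (TC15002776.hg.1), had 14.75 in induced and 14.11 in control SUM159 cells, and 14.68 in induced and 14.79 in control MDA-MB-231 cells. It was 1.56-fold higher in SUM159. After quantile normalization PKM stood at 0.47 and HK2 at 0.56 in SUM159, both under the threshold, and 4 genes were then past it. The aldolase gene ALDOA stood at 0.30 and -0.12 for SUM159 and MDA-MB-231, the enolase genes ENO1 at 0.26 and -0.02 and ENO2 at 0.38 and -0.22, and GAPDH, often used as a loading control, at 0.24 and -0.09. TPI1 (0.11 and -0.24), PGAM1 (0.04 and -0.25) and PGK1 (0.03 and -0.13) stood close to 0 in SUM159. GAPDH, PGAM1, TPI1, ENO1 and LDHA have processed pseudogenes that may share probes, so they are uncertain as single genes.

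Of the 5 genes of lactate production and flux control, 0 were past 1.5-fold in either line. LDHA, the main lactate dehydrogenase subunit of tumour cells, had 12.91 in induced and 12.94 in control SUM159 cells, and 13.64 in induced and 13.66 in control MDA-MB-231 cells, a difference of -0.03 and -0.02. LDHB, whose subunit favours the reverse reaction, stood at 0.38 and 0.11. PDK1, which encodes a kinase that shuts off pyruvate dehydrogenase, stood at -0.08 and 0.15. PFKFB3 and PFKFB4, which encode bifunctional enzymes that make and break the activator of phosphofructokinase, stood at 0.17 and -0.15 and at 0.05 and -0.28, for SUM159 and MDA-MB-231.

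**Figure D2:**
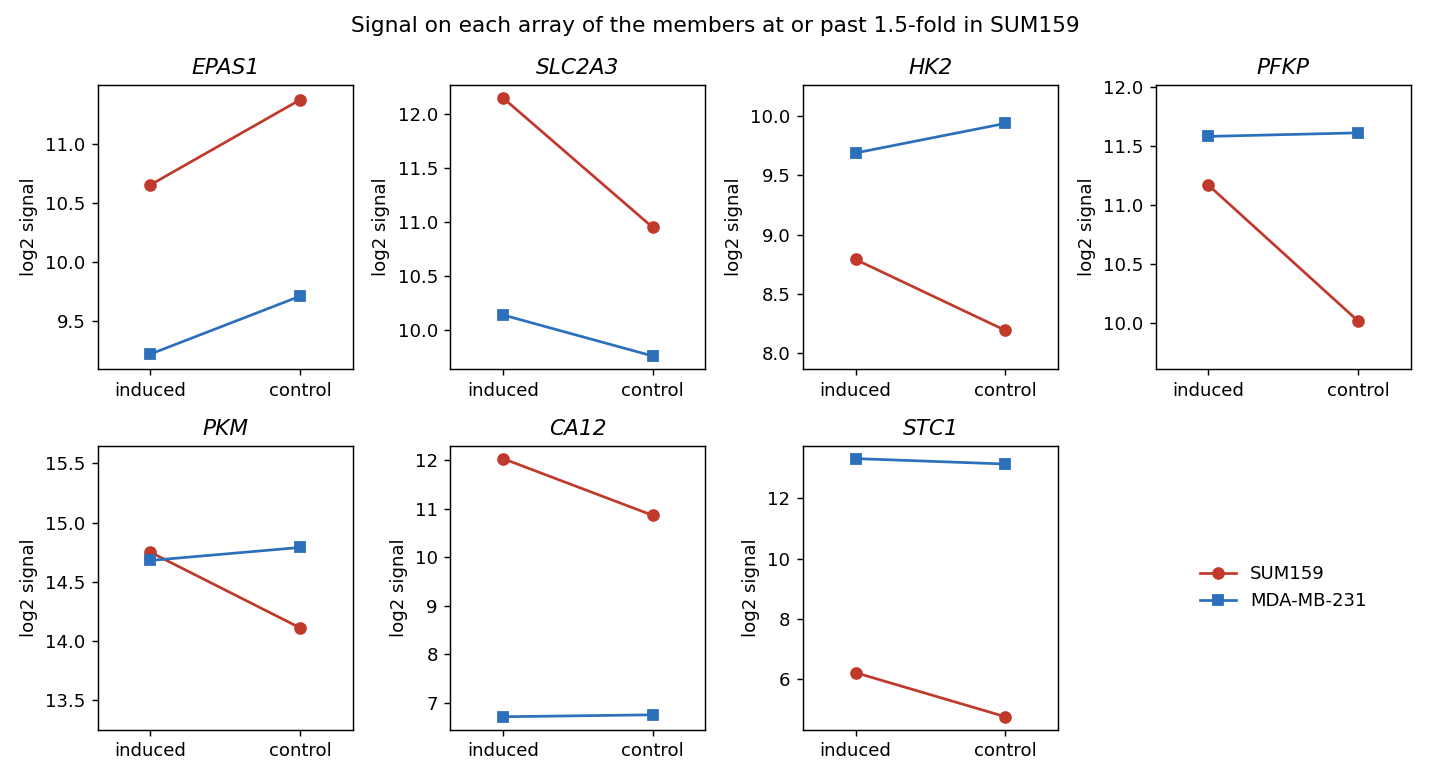
Log2 signal on each of the 4 arrays for the 7 genes at or past 1.5-fold in SUM159, induced at left and control at right of each panel, each point 1 array; the signal axes differ between panels and none starts at 0. EPAS1 is lower in the induced array of each line, while the SUM159 line of STC1, CA12, PFKP, SLC2A3, PKM and HK2 is higher at the induced end.

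Among 13 other HIF targets, 2 were past 1.5-fold in SUM159, both higher. STC1, the gene of the secreted glycoprotein stanniocalcin 1 (TC08001062.hg.1), had 6.22 in induced and 4.76 in control SUM159 cells, and 13.31 in induced and 13.13 in control MDA-MB-231 cells. It was 2.75-fold higher in SUM159, the largest difference of the 40 genes, from a control signal near the cutoff, and stood at 0.18 in MDA-MB-231. CA12, a membrane carbonic anhydrase gene that helps cells export acid (TC15001541.hg.1), had 12.03 in induced and 10.86 in control SUM159 cells, and 6.71 in induced and 6.75 in control MDA-MB-231 cells. CA12 was 2.25-fold higher in SUM159 and stood at -0.04 in MDA-MB-231. P4HA1, a collagen prolyl hydroxylase gene, came just short in SUM159 at 0.57, and NDRG1 stood at 0.48.

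The other targets differed in how they stood by line. VEGFA, the gene of the blood vessel growth factor, had 10.29 in induced and 10.74 in control SUM159 cells, and 11.65 in induced and 11.34 in control MDA-MB-231 cells, thus lower in SUM159 at -0.45 and higher in MDA-MB-231 by 0.31. The mitophagy receptor genes BNIP3 (0.38 and 0.31) and BNIP3L (0.00 and 0.39) and the MYC antagonist gene MXI1 (0.03 and 0.50) were the targets past 0.3 in MDA-MB-231 besides VEGFA. The oxygen-responsive genes ANKRD37 (0.07 and -0.01), KDM3A, a histone demethylase gene (0.05 and 0.07), and P4HA2 (0.01 and 0.02) stood near 0 in each line. ADM, the gene of the vasodilator peptide adrenomedullin, stood at -0.04 and -0.14, and ANGPTL4, the gene of a secreted inhibitor of lipoprotein lipase, at 0.00 and -0.18. The 13 targets had a median difference of 0.05 for SUM159 and 0.07 for MDA-MB-231, against 0.26 and -0.13 over the enzymes, and the difference between these groups was not tested.

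**Figure D3:**
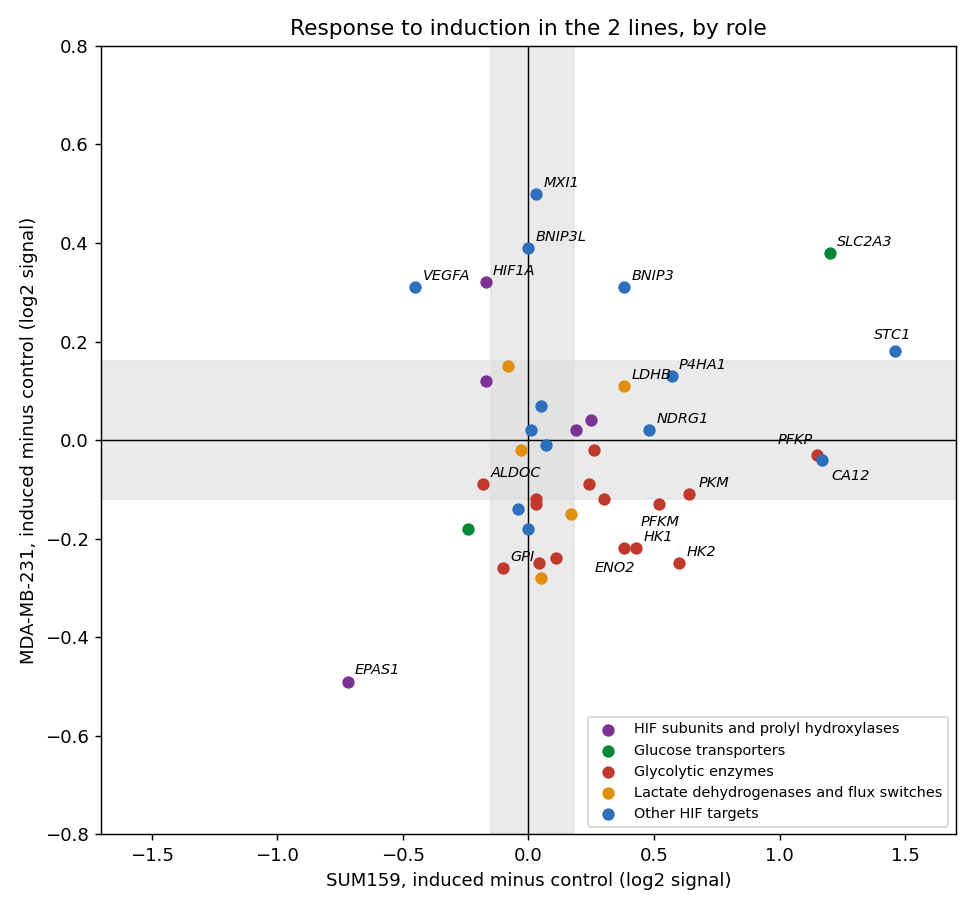
Induced minus control difference in log2 signal in SUM159 (x axis) against MDA-MB-231 (y axis), each point 1 of the 40 genes from 1 array per group, coloured by role; grey bands span the middle 50% of all kept genes in each line. As deposited, all 15 glycolytic enzymes lie below 0 on the y axis (14 after quantile normalization, 13 after centring) and 13 (11 after quantile normalization) lie right of 0 on the x axis; EPAS1 is lower in each line and SLC2A3 higher in each.

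Over both lines, limma with cell line as a block called 0 of the 40 genes after Benjamini-Hochberg adjustment over 14418 genes, where 0% of all kept genes were called. At an unadjusted limma p under 0.05, 2 of the 40 were higher, SLC2A3 and BNIP3, and 1 was lower, EPAS1. Of all 14418 kept genes, 373 were higher and 183 lower at that cut. EPAS1 had a mean difference of -0.60 ± 0.13 (limma SE, 2 lines), SLC2A3 of 0.79 ± 0.25 and BNIP3 of 0.34 ± 0.12, each with a limma adjusted p of 0.918. The MIR100 probeset itself had an adjusted p of 0.918, so a count of 0 says nothing of the size of a response. The fit has 1 residual degree of freedom, which is how far the lines differ in response, so it cannot call a gene such as PFKP (0.56 ± 0.33) that stood at 1.15 in 1 line and -0.03 in the other. Whether the lines differ in response was not tested, since no degree of freedom is left for it.

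Between the lines, most of the 40 genes were called, in both directions. Using the mean over both states, limma with state as a block called 11 of 40 genes higher in SUM159, where 20.8% of all kept genes were called, and 15 lower in SUM159, where 23.8% were. Without the signal filter, the limma adjusted p of HIF1A, EGLN3, LDHB, HK2, PFKFB3, VEGFA and ANGPTL4 lay between 0.0529 and 0.0854, so these calls rest on it. The residual here too is the difference in response, so an adjusted p does not measure a spread of replicate cultures. At least 2-fold in the same direction in both states, 5 genes were higher in SUM159 (9.32% of kept genes) and 8 lower (11.5%). The median absolute difference between lines was 0.73 log2 units over the 40 genes and 0.47 over all kept genes. The kept genes include many dim ones, with 5613 of 14418 at a mean signal under 6. Raising the signal filter to the 75th percentile left 8946 genes, of which limma called 4984 between lines, against 6436 of 14418 before. Among the 34 members then left, 10 were called higher and 13 lower in SUM159. How far signal level accounts for the members' larger differences was not tested.

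STC1 had the largest difference of the 40. Its values given above put it at -7.73 ± 0.36 (SUM159 minus MDA-MB-231, limma SE, 2 arrays a line), with a limma adjusted p of 0.00243, or 212-fold higher in MDA-MB-231, and 0.05% of kept genes lay lower. Because STC1 was near the cutoff in SUM159 control cells, this fold is only approximate. CA12 lay at the other end, at 4.71 ± 0.34, 26.3-fold higher in SUM159, with a limma adjusted p of 0.00409. The line differences of these genes varied with the state: STC1 was -7.09 apart in induced and -8.37 in control cells, and CA12 5.32 apart in induced and 4.11 in control cells. The lines were thus closer in induced cells for STC1 and farther apart for CA12.

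The HIF subunit genes of the main list, EPAS1, ARNT and HIF1A, were higher in SUM159. ARNT2, a gene of the further lists chosen after its values were seen, went the other way. It had 4.96 in induced and 4.86 in control SUM159 cells, and 6.63 in induced and 6.45 in control MDA-MB-231 cells. That is a difference of -1.63 ± 0.12, with a limma adjusted p of 0.00405. EPAS1 differed by 1.54 ± 0.13, with a limma adjusted p of 0.0051, and was 2.92-fold higher in SUM159. ARNT differed by 0.76 ± 0.12, with a limma adjusted p of 0.0178. HIF1A differed by 0.74 ± 0.17, with a limma adjusted p of 0.0402, against 0.0768 on quantile-normalized values. The hydroxylase gene EGLN1 was lower in SUM159, at -1.06 ± 0.14, with a limma adjusted p of 0.0108, and EGLN3 was higher by 0.54 ± 0.13 at signals near the cutoff.

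Genes of the same step lay on opposite sides for glucose transport, phosphofructokinase and lactate dehydrogenase. SLC2A3 was higher in SUM159 by 1.6 ± 0.25 and SLC2A1 lower at -1.75 ± 0.12, with limma adjusted p of 0.0156 and 0.00367. Among the phosphofructokinase subunits, PFKM had 10.57 in induced and 10.05 in control SUM159 cells, against 8.30 in induced and 8.43 in control MDA-MB-231 cells. PFKM was 3.85-fold higher in SUM159, with a limma adjusted p of 0.0074, while PFKP was lower at -1.0 ± 0.33 without a call, at an adjusted p of 0.087, and PFKL differed by 0.14 ± 0.12, at an adjusted p of 0.401. LDHB was higher in SUM159 by 0.62 ± 0.13 and LDHA lower at -0.72 ± 0.11, and both were called by limma. These are differences of each gene between lines; signals of different probesets are not compared.

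Of the 15 enzymes, 2 were called higher in SUM159, PFKM and GPI, and 4 lower, ENO2, PGK1, HK2 and PGAM1. Over all kept genes, 20.8% were called higher and 23.8% lower. ENO2, the neuronal enolase gene, had 7.83 in induced and 7.45 in control SUM159 cells, against 9.31 in induced and 9.53 in control MDA-MB-231 cells, 3.43-fold higher in MDA-MB-231. PGK1, the phosphoglycerate kinase gene, had 12.56 in induced and 12.53 in control SUM159 cells, against 14.21 in induced and 14.34 in control MDA-MB-231 cells, 3.32-fold higher in MDA-MB-231. HK2 and PGAM1 were lower in SUM159 at -1.32 ± 0.25 and -1.20 ± 0.14. For HK1, PFKL, ALDOA, ALDOC, GAPDH and PKM the difference was at most 0.31 in size, with limma adjusted p from 0.27 to 1. ENO1 and TPI1 were lower at -0.44 each without passing. The flux switches PFKFB4 (-1.09 ± 0.14) and PFKFB3 (-0.64 ± 0.14) were called lower in SUM159, and PDK1 (0.66 ± 0.13) was called higher. PFKFB4 had 4.86 in induced and 4.81 in control SUM159 cells, near the cutoff.

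Besides CA12 and STC1, MXI1 was called higher and ADM, BNIP3, NDRG1, VEGFA and ANGPTL4 lower in SUM159. MXI1 had 10.65 in induced and 10.62 in control SUM159 cells, against 8.12 in induced and 7.62 in control MDA-MB-231 cells, 6.80-fold higher in SUM159. ADM had 4.52 in induced and 4.56 in control SUM159 cells, against 6.77 in induced and 6.91 in control MDA-MB-231 cells, so it was near the cutoff in SUM159. BNIP3 had 10.83 in induced and 10.45 in control SUM159 cells, against 12.81 in induced and 12.50 in control MDA-MB-231 cells, 4.04-fold higher in MDA-MB-231 with a limma adjusted p of 0.00311. NDRG1, a growth-arrest and hypoxia-responsive gene, had 8.40 in induced and 7.92 in control SUM159 cells, against 9.85 in induced and 9.83 in control MDA-MB-231 cells. Both SUM159 arrays lay above both MDA-MB-231 arrays for MXI1 and below them for ADM, BNIP3 and NDRG1. P4HA1, P4HA2, ANKRD37, KDM3A and BNIP3L were not called, with limma adjusted p from 0.0628 to 0.811.

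**Figure D4:**
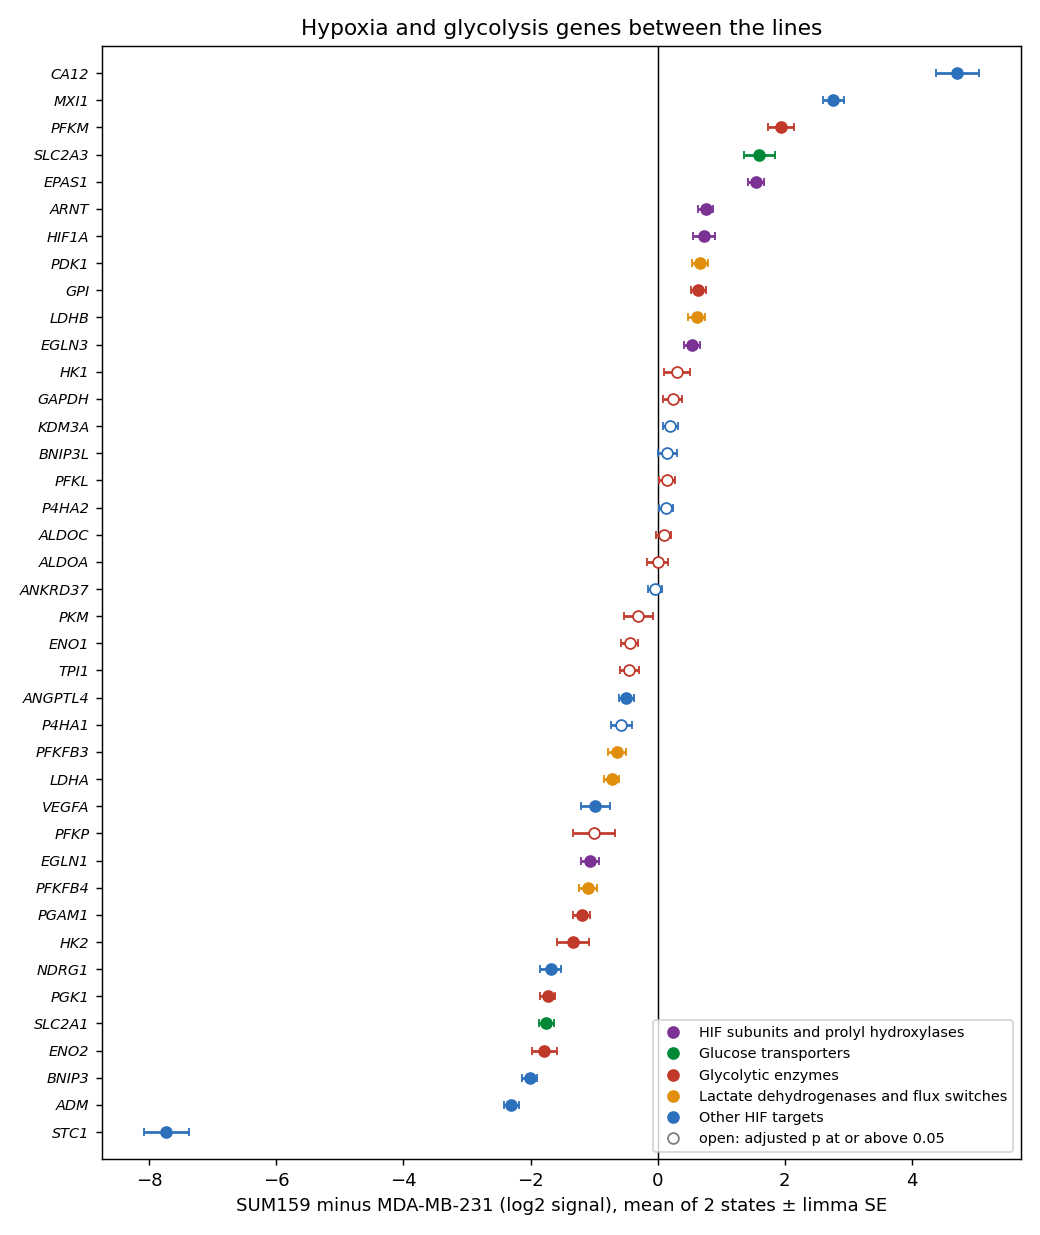
Difference between the lines, SUM159 minus MDA-MB-231 in log2 signal, as the mean of the induced and control states with the limma SE (2 arrays a line), for the 40 genes in order of the difference; filled points have a limma adjusted p under 0.05 over 14418 genes. CA12 lies farthest to the right at 4.71 and STC1 farthest to the left at -7.73.

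Other genes of the same pathways were taken from 5 further lists, in which 74 of 91 genes were kept. After induction, 2 of the 74 were past 1.5-fold higher in SUM159 and 4 lower, against 3.95% and 3% of all kept genes, and in MDA-MB-231 1 was higher and 2 lower, against 1.69% and 0.784%. The medians over the 74 were 0.03 for SUM159 and 0.05 for MDA-MB-231. The 4 genes past 1.5-fold lower in SUM159 were all among the 27 further HIF targets, of which 0 were past it higher. At any size, 15 of the 27 were higher and 11 lower in SUM159, with a median of 0.06. The collagen crosslinker gene LOX had 6.36 in induced and 7.82 in control SUM159 cells, and 10.11 in induced and 9.62 in control MDA-MB-231 cells, so that its sign differed by line. The glycogen-targeting gene PPP1R3C stood at -1.40 for SUM159 and -0.79 for MDA-MB-231, the mTORC1 inhibitor gene DDIT4 at -0.97 and -0.25, and the collagen lysyl hydroxylase gene PLOD2 at -0.89 and 0.28. In MDA-MB-231, the lipoprotein receptor gene VLDLR stood at -0.61 and the sterol regulator gene INSIG2 at 0.59, against 0.17 and -0.50 in SUM159. Among 9 kept HIF regulators, CITED2, which encodes a protein that competes with HIF for its coactivators, stood at 0.67 for SUM159 and 0.30 for MDA-MB-231.

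Genes of the glucose side branches were higher in SUM159 for 8 of 10, with a median of 0.17, and in MDA-MB-231 5 were lower and 4 higher. Over all kept genes, 48.8% were higher in SUM159 and 47.3% lower in MDA-MB-231. The pentose phosphate gene TKT, transketolase, had 12.93 in induced and 12.34 in control SUM159 cells, and 11.45 in induced and 11.58 in control MDA-MB-231 cells. PGD and TALDO1 of the same branch, which like RPIA were chosen after their values were seen, stood at 0.32 each in SUM159 and at -0.14 and -0.09 in MDA-MB-231, while RPIA stood at 0.25 for SUM159 and 0.26 for MDA-MB-231. Between lines, limma called 16 of the 74 genes (21.6%) higher and 24 (32.4%) lower in SUM159, against 20.8% and 23.8% of all kept genes. The highest were PPP1R3C (4.54), the serine synthesis gene PHGDH (4.34), the malic enzyme gene ME1 (3.63) and DDIT4 (2.71). The lowest were PLOD2 (-6.78), the glycerol phosphate shuttle gene GPD2 (-5.20), the chemokine receptor gene CXCR4 (-4.29) and the glucose transporter gene SLC2A12 (-3.92), with limma adjusted p from 0.00158 to 0.00258. PHGDH had 4.47 on each MDA-MB-231 array and GPD2 4.09 and 4.25 in induced and control SUM159 cells, and CXCR4 4.51 and 4.28, all near the cutoff, and SLC2A12 had 3.98 and 3.57 there, below it. PPP1R3C had 4.65 in induced MDA-MB-231 cells, also near the cutoff, and 5.44 in control ones.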

How the data were processed

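RNA from 4 samples was labelled from 100 ng with an Affymetrix WT kit, per the labels' protocols. The authors' deposited table holds 1 log2 signal for each of 70523 probesets and array; Affymetrix Expression Console and Transcriptome Analysis Console are named in the submitters' processing notes, while their versions, the summarisation, the normalization and the build are not given in these sources. A shift shared by most genes of an array could have been removed before deposit. Values were used as deposited. The platform annotation gave 1 symbol to 23781 probesets, and 22465 named genes were cut at a mean log2 signal of 4.035, the median of all probesets. limma 3.58.1 (lmFit, eBayes) in R 4.3.3 was fitted to 14418 genes with line or state as a block, two-sided, Benjamini-Hochberg over all genes, threshold 0.05; genes with zero residual were offset by limma. The fit between lines was tested on simulated data with independent noise and no response to induction. The fit over both lines was not simulated. Alternatives were other scalings, filters, probeset summaries, thresholds and models. Members, lists and the naming rule (members past 1.5-fold, or among the 12 most different called between lines; listed pathway genes past 1.5-fold or the 4 highest and lowest between lines) were chosen with earlier results of these data known. Arrays are not stated to be separate cultures. The residual of each fit is the difference in response between lines, so p-values do not measure a spread of replicates. The number of arrays limits precision.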

Additional observations from a re-analysis of the deposited data

Results flagged for a closer look

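Several results went opposite ways in the 2 lines, each from 1 array pair a line, and the difference between lines was not tested. The median difference of the 15 glycolytic enzymes was 0.26 for SUM159 and -0.13 for MDA-MB-231. HK2 stood at 0.60 and -0.25, PKM at 0.64 and -0.11, PFKP at 1.15 and -0.03, and CA12 at 1.17 and -0.04, for SUM159 and MDA-MB-231. The MDA-MB-231 values of PKM, PFKP and CA12 lie inside that line's noise spread of 0.178, and PFKP stood at 0 there after centring.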

How the results depend on the processing

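The count of genes lower in SUM159 after induction was 1 at 1.5-fold and 0 at 2-fold, since EPAS1 is lower by less than 2-fold. The 6 genes higher in SUM159 became 4 after quantile normalization, where HK2 and PKM fell short, 8 after centring and 4 at 2-fold. Over all kept genes in SUM159, the 570 higher and 432 lower became 471 and 515 after quantile normalization and 799 and 316 after centring, so the split depends on scaling. Enzymes higher in SUM159 numbered 13 of 15 as deposited and 11 after quantile normalization, with medians of 0.26 and 0.14, and 13 after centring. The median over all members in SUM159 was 0.09, and 0.16 after centring and 0.18 over the 34 genes above the 75th percentile. limma over both lines called 0 of all kept genes under every alternative run, MIR100 included, so its sameness shows no stability. Between lines, 11 higher and 15 lower became 8 and 11 without the signal filter, where more genes enter the adjustment, and 11 and 17 without the block. Averaging probesets or dropping the signal filter cannot alter the members' fold counts and medians, since each has 1 probeset and all 40 were kept. No array could be left out with 1 per group. The model over both lines is already paired by cell line, as 2 pairs of arrays; the labels give no replicate numbers to pair on. Signals near the cutoff (ALDOC, EGLN3, ADM, ANGPTL4, PFKFB4 and STC1 in SUM159) limit what can be seen there.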

Other observations

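Of 15 kept genes of pyruvate entry to mitochondria and gluconeogenesis, 12 were higher in induced MDA-MB-231 cells, with a median of 0.11. In induced SUM159 cells 9 were lower, with a median of -0.05, and 0 were past 1.5-fold in either line. Of all 14418 kept genes, 7301 were higher in MDA-MB-231 and 7116 lower in SUM159. These shares varied with signal, and at a mean of 8 to 10, 41.3% of kept genes were lower in MDA-MB-231. The part of signal level was not tested. The pyruvate carrier gene MPC1 stood at -0.12 for SUM159 and 0.32 for MDA-MB-231, the pyruvate dehydrogenase phosphatase gene PDP1 at 0.10 and 0.38, and PDK3, which encodes a kinase of the same complex, at -0.17 and 0.36. PCK2, the mitochondrial phosphoenolpyruvate carboxykinase gene, was lower in each line, at -0.47 and -0.32. These genes were chosen after their values were seen. Among 13 kept glycolysis isoforms and transporters outside the main list, 8 were lower for SUM159 and 8 for MDA-MB-231, with 0 past 1.5-fold. Over the 14418 kept genes, 7116 and 6818 were lower. BSG, the chaperone of lactate transporters, stood at -0.03 and -0.07.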
